A study of Mus musculus with 8 samples.

Results

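The genes described here are 10 genes of the circadian clock and its PAR bZIP output: Nr1d1, Nr1d2, Dbp, Tef, Nfil3, Cry1, Cry2, Per3, Ciart and Bhlhe41. They were taken by symbol from 49315 Ensembl gene identifiers counted in RNA of the whole mouse esophagus, and each symbol matched 1 identifier. The tissue came from wild-type mice at day 14, in 3 libraries from mice that drank water with 0.5% sodium dodecyl sulfate (SDS, a household detergent) and in 5 libraries from untreated controls. The labels give neither strain nor age nor the hour of day at which the tissue was taken. They do not say that libraries are from different animals, and the spread between libraries may therefore not be that between animals. The 10 genes were chosen by their function and selected on their measured levels in these SDS and control libraries. Their levels in the 2 groups are therefore given as a description, with no test.

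The clock is a transcription loop that runs in nearly every cell and follows the time of day. The activators BMAL1 (gene Arntl) and CLOCK bind E-boxes and switch on the Per and Cry genes, whose proteins then block the activators. The same activators drive the nuclear receptors REV-ERBα and REV-ERBβ (Nr1d1, Nr1d2), which repress Arntl in competition with the ROR receptors. They also drive DBP, a PAR bZIP factor that, with TEF and HLF, activates output genes through D-boxes. NFIL3 (E4BP4) represses through the same D-boxes. The protein of Ciart, also called CHRONO, and the protein of Bhlhe41, also called DEC2, repress E-box transcription.

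The promoters below are shown because the E-box and the D-box are the letters through which these genes are known to be wired to each other. Each is the RefSeq window on build GRCm38.p6, from 250 bases before to 50 bases after the gene start, written 5′ to 3′ on the strand of the gene. Capitals mark the E-box CACGTG, the E-box variant CACGTT (printed as AACGTG where it lies on the opposite strand) or the D-box TTATGTAA.
Ciart, chr3:95882179-95882478, minus strand: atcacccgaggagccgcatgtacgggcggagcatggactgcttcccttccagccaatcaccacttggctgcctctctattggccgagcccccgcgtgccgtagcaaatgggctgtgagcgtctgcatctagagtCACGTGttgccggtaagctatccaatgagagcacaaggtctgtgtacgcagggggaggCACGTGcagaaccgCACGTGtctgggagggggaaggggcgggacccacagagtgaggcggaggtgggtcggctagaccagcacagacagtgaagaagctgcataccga
Bhlhe41, chr6:145865371-145865670, minus strand: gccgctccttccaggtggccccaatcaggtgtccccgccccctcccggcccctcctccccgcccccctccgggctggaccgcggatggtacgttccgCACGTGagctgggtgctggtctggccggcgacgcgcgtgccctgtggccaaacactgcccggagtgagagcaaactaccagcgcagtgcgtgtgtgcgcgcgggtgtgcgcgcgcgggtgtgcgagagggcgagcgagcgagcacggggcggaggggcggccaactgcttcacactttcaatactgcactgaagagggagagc
Tef, chr15:81802423-81802722, plus strand: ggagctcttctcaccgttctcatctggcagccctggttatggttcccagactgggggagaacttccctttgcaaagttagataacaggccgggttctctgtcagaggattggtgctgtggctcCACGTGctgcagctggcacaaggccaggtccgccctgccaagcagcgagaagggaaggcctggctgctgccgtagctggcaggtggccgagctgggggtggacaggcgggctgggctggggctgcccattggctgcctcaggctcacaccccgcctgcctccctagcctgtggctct
Nr1d1, chr11:98775328-98775627, minus strand: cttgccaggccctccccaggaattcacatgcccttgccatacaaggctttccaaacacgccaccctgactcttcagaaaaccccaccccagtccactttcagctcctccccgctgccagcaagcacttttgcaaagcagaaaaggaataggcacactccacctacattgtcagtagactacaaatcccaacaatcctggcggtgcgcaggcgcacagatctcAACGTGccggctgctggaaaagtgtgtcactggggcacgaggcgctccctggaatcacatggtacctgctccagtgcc
Cry2, chr2:92434020-92434319, minus strand: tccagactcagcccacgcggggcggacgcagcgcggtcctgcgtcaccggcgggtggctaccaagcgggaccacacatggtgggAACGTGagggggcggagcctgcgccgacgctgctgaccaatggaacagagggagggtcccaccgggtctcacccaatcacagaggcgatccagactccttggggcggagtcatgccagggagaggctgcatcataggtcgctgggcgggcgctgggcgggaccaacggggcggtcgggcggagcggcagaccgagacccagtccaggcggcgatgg
Per3, chr4:151044616-151044915, minus strand: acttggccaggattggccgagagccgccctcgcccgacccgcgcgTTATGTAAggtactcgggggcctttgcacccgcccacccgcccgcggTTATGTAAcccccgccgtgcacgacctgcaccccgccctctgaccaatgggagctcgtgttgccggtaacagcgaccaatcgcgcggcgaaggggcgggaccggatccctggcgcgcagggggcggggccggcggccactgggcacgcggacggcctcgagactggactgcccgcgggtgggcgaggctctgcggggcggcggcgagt

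All 10 genes had a RefSeq promoter, and Tef had a second one that also held CACGTG. The E-box CACGTG, searched on both strands, lay in the promoters of 4 of the 10 genes (Bhlhe41, Ciart, Cry1 and Tef), and in 7.15% of all 32851 promoters. Ciart had 3 copies, which began 116, 58 and 44 bases before the gene start (distances of -116, -58 and -44). The variant CACGTT lay in the windows of Cry1, Cry2 and Nr1d1, against 4.68% of all promoters. The D-box, searched as TTATGTAA or TTACGTAA, lay only in the Per3 window among the 10 genes, in 2 copies at -205 and -158, against 1.06% of all promoters. Neither the cAMP response element TGACGTCA nor the ROR element was found in these windows, where 1.79% and 0.384% of all promoters hold them. A match of letters is a description and not a measured binding site.

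Library totals ran from 22033866 to 29802362 counts. The smallest count of any of the 10 genes in a library was 73 (Nfil3) and the largest 10004 (Tef), and all 10 passed the filter on low counts. Values are counts scaled to the TMM-adjusted library size (CPM), and length-scaled values (TPM) where genes are compared with each other. Libraries of a group were not alike in cell content. The 8 adipocyte markers summed to 186 to 1667 CPM in the SDS libraries, 183 to 1430.4 CPM in control libraries 1, 2, 3 and 5, and 5532 CPM in control library 4. The 6 leukocyte markers summed to 470, 969 and 279 CPM in SDS libraries 1, 2 and 3 and to between 154 and 249 CPM in controls, so SDS library 3 lay nearest to the controls. All 5 leukocyte markers that passed the filter were higher at an unadjusted p under 0.05 and by DESeq2, and 0 were called by edgeR or limma-voom. The squamous keratins that define the epithelium were abundant in every library: the 8 epithelial markers summed to between 88745 and 150194 CPM in SDS libraries and between 40987 and 135485 CPM in controls. Of these, edgeR called 1, the basal keratin gene Krt14, higher in SDS (log2 fold change 2.55 ± 0.47, SE; adjusted p = 0.0493), DESeq2 called Krt14 and Dsg3 higher, and limma-voom called 0. None of the adipocyte markers was called by edgeR, DESeq2 or limma-voom, with 0 at an unadjusted p under 0.05. Of all tested genes edgeR called 1.05%, DESeq2 9.76% and limma-voom 0.786%.

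In the untreated esophagus the order of the levels per length ran from Nr1d1 at the top to Nfil3 at the bottom. Mean control levels were 150.1 TPM for Nr1d1, 129 for Dbp, 106 for Tef, 65.1 for Nr1d2, 30.7 for Cry2, 21.0 for Per3, 16.6 for Ciart, 15 for Bhlhe41, 11 for Cry1 and 5.01 for Nfil3 (n = 5). The control ranges of Nr1d1 and Dbp overlapped, as did those of Dbp and Tef, of Ciart and Bhlhe41, and of Bhlhe41 and Cry1, while the other neighbours in this order did not overlap. In the SDS libraries Tef came first with a mean of 74.0 TPM, followed by Nr1d1 with 73.8 TPM and Dbp with 64.7 TPM (n = 3), and the ranges of these 3 genes overlapped with each other. Bhlhe41 came last there, with 7.64 TPM. The spread among controls differed widely between genes: the coefficient of variation of the CPM was 1.41% for Tef and 4.39% for Nr1d2, and 22.8% for Bhlhe41 and 27.8% for Nfil3.

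Of the 10 genes, 7 had every SDS library below every control library, and 0 had every SDS library above. Among all 17179 genes tested, 6.89% had all SDS libraries below all controls, 6.49% had all above, and 13.4% were thus without overlap in either direction. Fold changes were negative for 9 of the 10, with Nfil3 the exception, and for 50.7% of all tested genes. At an adjusted p of 0.05 from the edgeR quasi-likelihood fit over all genes, 3 of the 10 (Nr1d1, Dbp and Cry2) were among the 73 genes called lower in SDS, which are 0.425% of all tested genes; 0 of the 10 were among those called higher, which are 0.623%. DESeq2 called 6 of the 10, adding Tef, Ciart and Bhlhe41, where it called 9.76% of all genes, and limma-voom called the same 3 as edgeR. The calls depend on single libraries, for these genes and for all genes. Without SDS library 3, 9 of the 10 were called, where 6.92% of all genes were. Without SDS library 1 it was 1 (Cry2), where 0.319% of all genes were called. It was 0 when SDS library 2 or control library 1, 2, 3 or 5 was left out. In those settings only 0.0228% to 0.105% of all genes were called. Since the genes were chosen with this comparison known, nothing is read from these counts.

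Nr1d1 encodes REV-ERBα, the heme-binding repressor of Arntl. It measured 96.6, 99.2 and 82.4 CPM with SDS (libraries 1 to 3), against 211, 207, 172, 149.8 and 199.7 CPM in control libraries 1 to 5. The highest SDS library thus lay well under the lowest control, and SDS library 3 was the lowest. The means were 92.7 ± 9.02 CPM with SDS (SD, n = 3) and 188 ± 26.3 CPM in controls (SD, n = 5), a log2 fold change of -1.02 ± 0.15 (SE). The gene (ENSMUSG00000020889) is annotated at chr11:98767932-98775333, minus strand, on mm10, the build of all gene positions given here.

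The exons of Nr1d1 share 263 bases, 8.55% of their length, with those of Thra, the thyroid hormone receptor gene on the opposite strand. The strand setting of the counting is not given in the sources used here, so reads from these bases cannot be assigned to either gene with certainty. Thra measured 52.2, 49.0 and 39.8 CPM with SDS and 57.5 to 74.0 CPM in controls, and its log2 fold change of -0.53 ± 0.13 (SE) did not pass (edgeR adjusted p = 0.0792). There were 1.85, 2.02 and 2.07 Nr1d1 reads per Thra read in the SDS libraries and 2.07 to 3.15 in controls.

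Nr1d2 encodes REV-ERBβ, the close relative of REV-ERBα. It measured 104, 88.3 and 119.8 CPM with SDS, against 137, 124, 137, 133 and 128 CPM in the controls. The groups did not overlap, but SDS library 3 came close to the lowest control. Its log2 fold change was -0.34 ± 0.12 (SE). The ratio of Nr1d1 to Nr1d2 reads was 0.93, 1.12 and 0.688 in the SDS libraries and between 1.12 and 1.67 in controls, so the larger difference stood at Nr1d1. The gene is at chr14:18204054-18239127, minus strand.

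Dbp encodes the D-box activator DBP, one of the genes with the widest daily swing in mouse tissues. It measured 88.1, 72.6 and 78.2 CPM with SDS, against 187, 154, 128, 169 and 142 CPM in the controls. All 3 SDS libraries stood close together and under the lowest control. The means were 79.6 ± 7.83 CPM with SDS (SD, n = 3) and 156 ± 23.1 CPM in controls (SD, n = 5), with a log2 fold change of -0.97 ± 0.15 (SE). Dbp (ENSMUSG00000059824) is at chr7:45705088-45710203, plus strand. Its exons share 539 bases, 18% of their length, with the sphingosine kinase gene Sphk2 on the opposite strand, which measured 43.5 to 53.9 CPM with SDS and 38.9 to 62.4 CPM in controls (log2 fold change -0.10 ± 0.17, SE).

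Tef encodes the PAR bZIP factor TEF, which has a weaker daily rhythm than DBP in many mouse tissues. It measured 246, 198 and 281 CPM with SDS, against 341, 342, 333, 335 and 332 CPM in the controls. The 5 controls were nearly equal, and every SDS library lay below them, by unequal steps. Its log2 fold change was -0.48 ± 0.13 (SE), and there were 0.279 to 0.367 Dbp reads per Tef read in the SDS libraries and 0.384 to 0.549 in controls. Tef is at chr15:81802421-81826861, plus strand.

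Nfil3 encodes the D-box repressor NFIL3, which is also known in mice as a factor of innate lymphoid and natural killer cell development. It measured 10.2, 8.82 and 3.30 CPM in SDS libraries 1, 2 and 3, against 4.51, 5.39, 3.03, 4.80 and 2.78 CPM in the controls. SDS libraries 1 and 2 lay above every control and SDS library 3 within the controls. The log2 fold change was 0.86 ± 0.37 (SE); it was 1.22 without SDS library 3 and 0.57 without SDS library 1. The libraries in which Nfil3 was high were also those with the highest leukocyte marker sums given above, and the part of leukocytes in the Nfil3 level was not tested. Nfil3 is at chr13:52967209-52981073, minus strand.

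**Figure D1:**
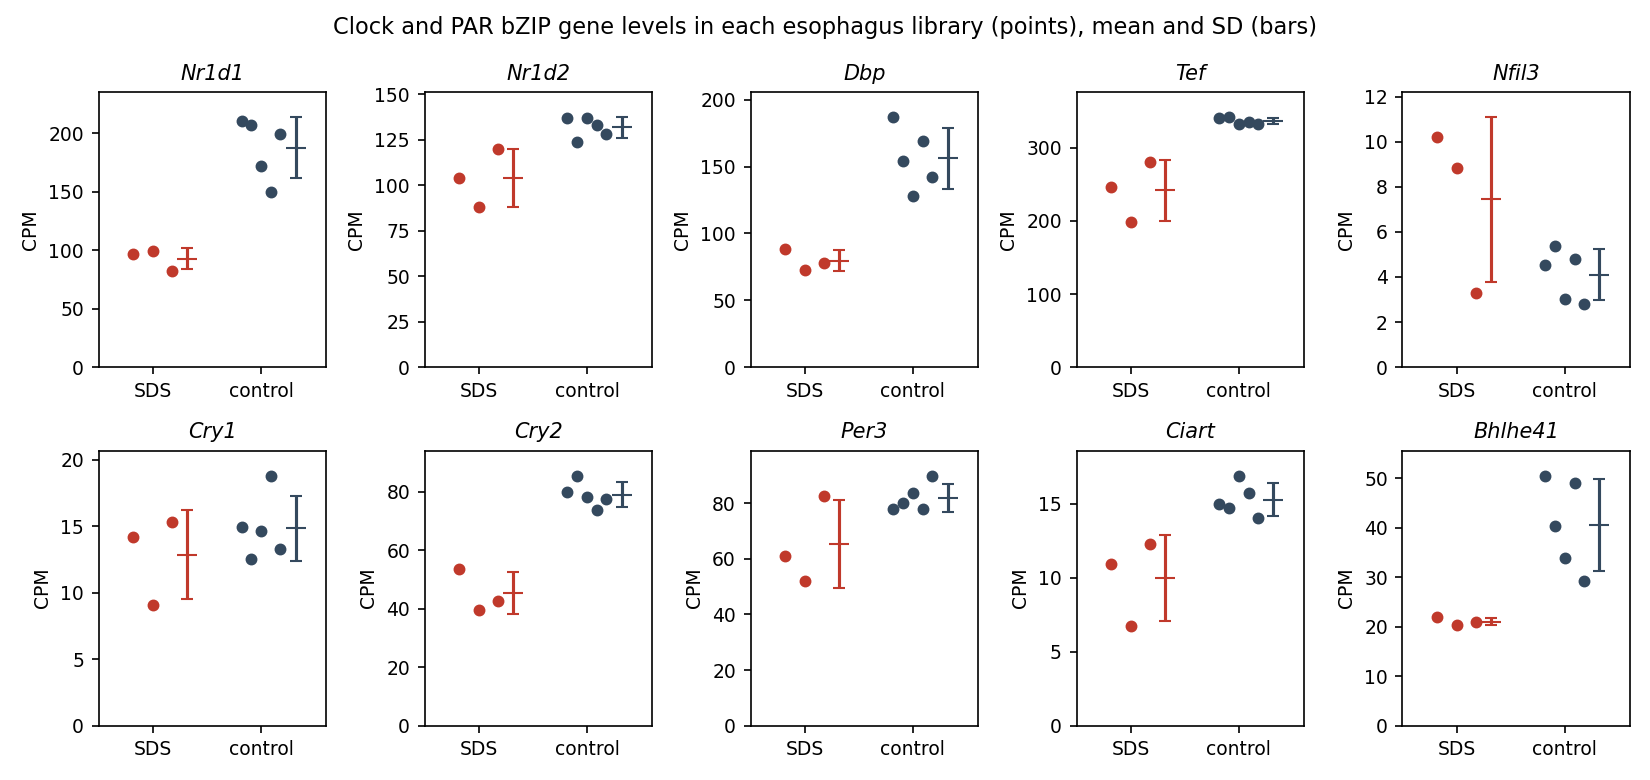
Level of each of the 10 genes in CPM (y axis, from 0) in the 3 SDS libraries (red, left) and the 5 control libraries (dark, right). Points are libraries and bars give the mean and SD. For Nr1d1, Nr1d2, Dbp, Tef, Cry2, Ciart and Bhlhe41 every SDS point lies below every control point, while the Nfil3 points of SDS spread from 3.30 to 10.2 CPM.

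The negative limb of the loop was uneven. Cry2 encodes a cryptochrome that, with the PER proteins, blocks CLOCK and BMAL1. It measured 53.6, 39.7 and 42.8 CPM with SDS, against 80.1, 85.6, 78.1, 73.8 and 77.5 CPM in controls, and the groups were well separated. The means were 45.4 ± 7.25 CPM with SDS (SD, n = 3) and 79.0 ± 4.32 CPM in controls (SD, n = 5), a log2 fold change of -0.80 ± 0.12 (SE). Cry2 is at chr2:92403646-92434043, minus strand.

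Cry1, the stronger repressor of the cryptochrome pair in mice, measured 14.2, 9.07 and 15.3 CPM with SDS and 14.9, 12.5, 14.6, 18.8 and 13.3 CPM in controls. Here the groups overlapped, and only SDS library 2 lay under the controls. The log2 fold change was -0.21 ± 0.20 (SE), -0.01 without SDS library 2 and -0.35 without SDS library 3. There were 3.77, 4.38 and 2.81 Cry2 reads per Cry1 read with SDS and 3.93 to 6.83 in controls, so these ratios overlapped. Cry1 is at chr10:85131700-85185064, minus strand.

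Per3 encodes a period protein that is dispensable for the core rhythm in mice. It measured 60.8, 52.0 and 82.7 CPM with SDS, against 77.9, 80.0, 83.6, 77.8 and 89.9 CPM in controls. SDS libraries 1 and 2 lay under all controls and SDS library 3 lay among them. The log2 fold change was -0.33 ± 0.15 (SE), -0.19 without SDS library 2 and -0.53 without SDS library 3. Per3, the gene with the pair of D-boxes printed above, is at chr4:151003652-151044665, minus strand.

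Ciart, whose promoter holds the 3 E-boxes printed above, measured 10.9, 6.75 and 12.3 CPM with SDS, against 15, 14.7, 16.9, 15.7 and 14.0 CPM in controls. The groups did not overlap, and SDS library 2 was the lowest. Its log2 fold change was -0.61 ± 0.19 (SE), and -0.40 without SDS library 2. The gene is at chr3:95878503-95882251, minus strand.

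Bhlhe41 measured 21.9, 20.4 and 20.9 CPM with SDS, against 50.6, 40.3, 33.9, 49.0 and 29.3 CPM in controls. The SDS libraries were nearly equal, with a coefficient of variation of 3.54%, while the controls spread over 22.8%. The means were 21.1 ± 0.747 CPM with SDS (SD, n = 3) and 40.6 ± 9.25 CPM in controls (SD, n = 5), with a log2 fold change of -0.95 ± 0.19 (SE). It is at chr6:145858243-145865558, minus strand. Its exons share 1280 bases with the opposite-strand gene Gm43909, which measured 0.542 to 0.949 CPM with SDS and 0.997 to 1.96 CPM in controls.

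The clock genes left out of the 10 were tested in the same fit. This list of 19 genes is what remains after the choice of the 10, so its direction is not independent of that choice. Of the 17 that passed the filter (Rorb and Fbxl21 did not), 0 were called higher and 0 lower by the edgeR quasi-likelihood fit, where 1.05% of all tested genes were called. At an unadjusted p under 0.05, 2 were higher and 5 lower. DESeq2 called 2, among them Timeless, which was higher, where it called 9.76% of all genes. The limma-voom fit called 0, against 0.786% of all genes. Their median log2 fold change was -0.15, against -0.005 over all tested genes.

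The activator genes had positive estimates that did not pass. Arntl, the gene of BMAL1, measured 6.37, 11.5 and 8.22 CPM with SDS and 7.54, 7.56, 10.4, 3.41 and 7.21 CPM in controls, with overlapping ranges (log2 fold change 0.27 ± 0.33, SE, edgeR adjusted p = 0.720). Clock measured 73.0, 67.8 and 124 CPM with SDS and 51.5 to 86.3 CPM in controls (0.39 ± 0.23, adjusted p = 0.409), and SDS library 3 was the highest of all. Npas2, which can stand in for Clock in mice, measured 2.44, 2.99 and 3.21 CPM with SDS and 1.08 to 2.77 CPM in controls (0.50 ± 0.29, adjusted p = 0.417). The estimates for Arntl and Clock changed sign with muscle markers as a covariate (-0.07 for each).

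Per1 and Per2, the period genes that also answer to acute signals, overlapped between the groups. Per1 measured 70.1, 63.7 and 51.8 CPM with SDS and 50.2 to 94.5 CPM in controls (log2 fold change -0.24 ± 0.23, SE; edgeR adjusted p = 0.631). Per2 measured 38.5, 28.1 and 48.3 CPM with SDS and 33.5 to 50.9 CPM in controls (-0.15 ± 0.21, adjusted p = 0.756), and its estimate was 0.03 without SDS library 2.

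The relatives of the described genes had negative estimates that did not pass. Hlf, the third PAR bZIP gene, measured 33.0, 26.1 and 24.2 CPM with SDS and 31.0 to 60.5 CPM in controls (log2 fold change -0.59 ± 0.23, SE; edgeR adjusted p = 0.216). Bhlhe40, the gene of DEC1 and sister of Bhlhe41, measured 126, 108 and 148 CPM with SDS and 130 to 285 CPM in controls (-0.71 ± 0.24, adjusted p = 0.165). Rora, a ROR receptor gene, measured 56.7, 58.1 and 101 CPM with SDS and 59.5 to 119.7 CPM in controls (-0.31 ± 0.27, adjusted p = 0.591).

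**Figure D2:**
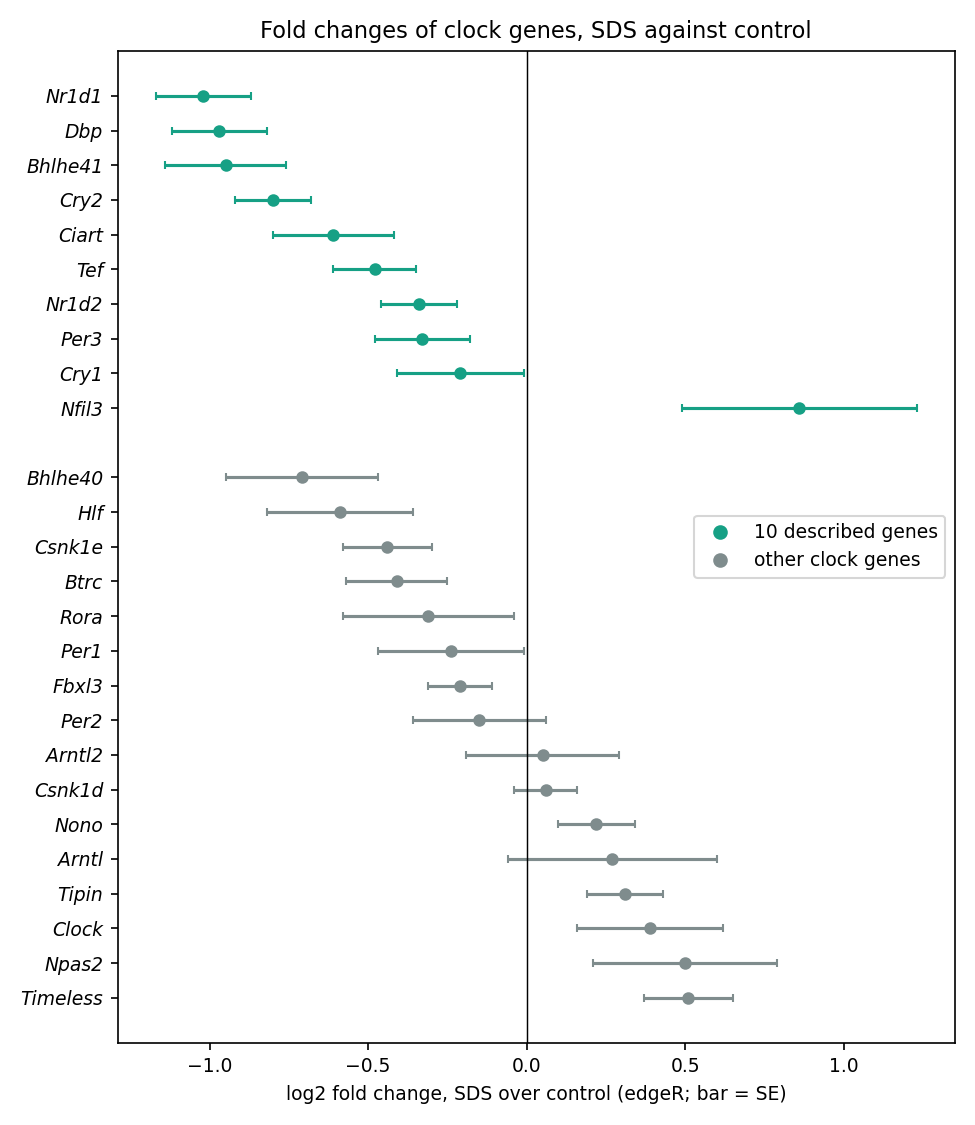
Log2 fold change of SDS over control (x axis; bars are SE) for the 10 described genes (green, top) and other clock genes that passed the filter (grey, below), from the edgeR fit on 3 SDS and 5 control libraries. The described genes run from -1.02 for Nr1d1 to 0.86 for Nfil3, and the others from -0.71 for Bhlhe40 to 0.51 for Timeless.

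Ratios within a library do not depend on how libraries are scaled. There were 15.2, 8.60 and 10 Nr1d1 reads per Arntl read in SDS libraries 1, 2 and 3, against 28.0, 27.4, 16.5, 43.9 and 27.7 in the controls. The ranges did not overlap, but Nr1d1 was selected on its level in these libraries. The ratio of Nr1d1 to Clock reads was 1.32, 1.46 and 0.667 with SDS and 1.99 to 3.51 in controls. The ratio of Dbp to Nfil3 reads, an activator and a repressor of the same element, was 8.62, 8.23 and 23.7 with SDS and 28.5 to 51.1 in controls. Both of these genes were selected on their levels in these libraries. For Tef and Nfil3, a pair of the same kind, the ratio overlapped, at 24, 22.4 and 85.2 with SDS and 63.5 to 119 in controls. The ratio of Dbp to Arntl reads overlapped, at 13.8, 6.30 and 9.52 with SDS and 12.3 to 49.6 in controls. Each of these ratios holds a gene selected on these levels. The share of all gene pairs without overlap was not taken, so nothing is read from these ratios.

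Genes of clock output, of temperature and heat shock, and of the glucocorticoid response were described from 3 lists. Of all tested genes edgeR called 1.05%, DESeq2 9.76% and limma-voom 0.786%. The share of all genes at an unadjusted p under 0.05 is not given here, so nothing is read from the counts in these lists. Of 23 clock output genes, 0 were called in either direction by edgeR, 3 were lower at an unadjusted p under 0.05 and 0 higher, DESeq2 called 2 lower (Usp2 and Pdk4) and limma-voom called 0. Their median log2 fold change was -0.33, against -0.005 over all tested genes. Pdk4, a pyruvate dehydrogenase kinase gene, measured 49.0, 65.7 and 37.5 CPM with SDS and 73.5 to 141 CPM in controls (-1.05 ± 0.27, SE; edgeR adjusted p = 0.0973). Usp2, a rhythmic deubiquitinase gene, measured 86.6, 66.8 and 35.5 CPM with SDS and 99.5 to 115 CPM in controls (-0.76 ± 0.25, adjusted p = 0.151). Ky, a muscle gene, measured 23.4, 37.4 and 13.8 CPM with SDS and 26.2 to 65.3 CPM in controls (-0.91 ± 0.36, adjusted p = 0.223).

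Of 12 temperature and heat shock genes, 0 were called by edgeR, DESeq2 or limma-voom, and 2 were higher and 1 lower at an unadjusted p under 0.05 (median 0.11). Hspa1b, an inducible HSP70 gene, measured 128, 108 and 209 CPM with SDS and 53.9 to 105 CPM in controls (0.85 ± 0.29, SE; edgeR adjusted p = 0.168). The cold-inducible RNA-binding protein genes Rbm3 and Cirbp had estimates of opposite sign, 0.47 ± 0.19 and -0.32 ± 0.14 (adjusted p = 0.243 and 0.268). Cirbp turned to 0.05 with muscle markers as a covariate.

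Of 15 glucocorticoid response genes, 0 were called by edgeR or limma-voom, 5 were higher and 2 lower at an unadjusted p under 0.05, and DESeq2 called 3 higher (Mt1, Ddit4 and Nfkbia) and 1 lower (Pdk4), with a median of -0.05. The direct target Fkbp5 measured 72.0, 37.2 and 48.5 CPM with SDS and 43.2 to 60.3 CPM in controls (log2 fold change -0.05 ± 0.21, SE; edgeR adjusted p = 0.928). Nfkbia, which also answers to NF-κB, measured 145, 137 and 102 CPM with SDS and 55.6 to 97.2 CPM in controls (0.83 ± 0.20, adjusted p = 0.0864; adjusted p = 0.0365 without SDS library 3). Ddit4, an mTORC1 inhibitor gene, measured 84.6, 63.0 and 49.8 CPM with SDS and 30.3 to 56.5 CPM in controls (0.70 ± 0.22, adjusted p = 0.144). Pdk4, Klf9, Tsc22d3 and Cdkn1a stand in both this list and the clock output list, and Per1 in this list and among the clock genes.

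**Figure D3:**
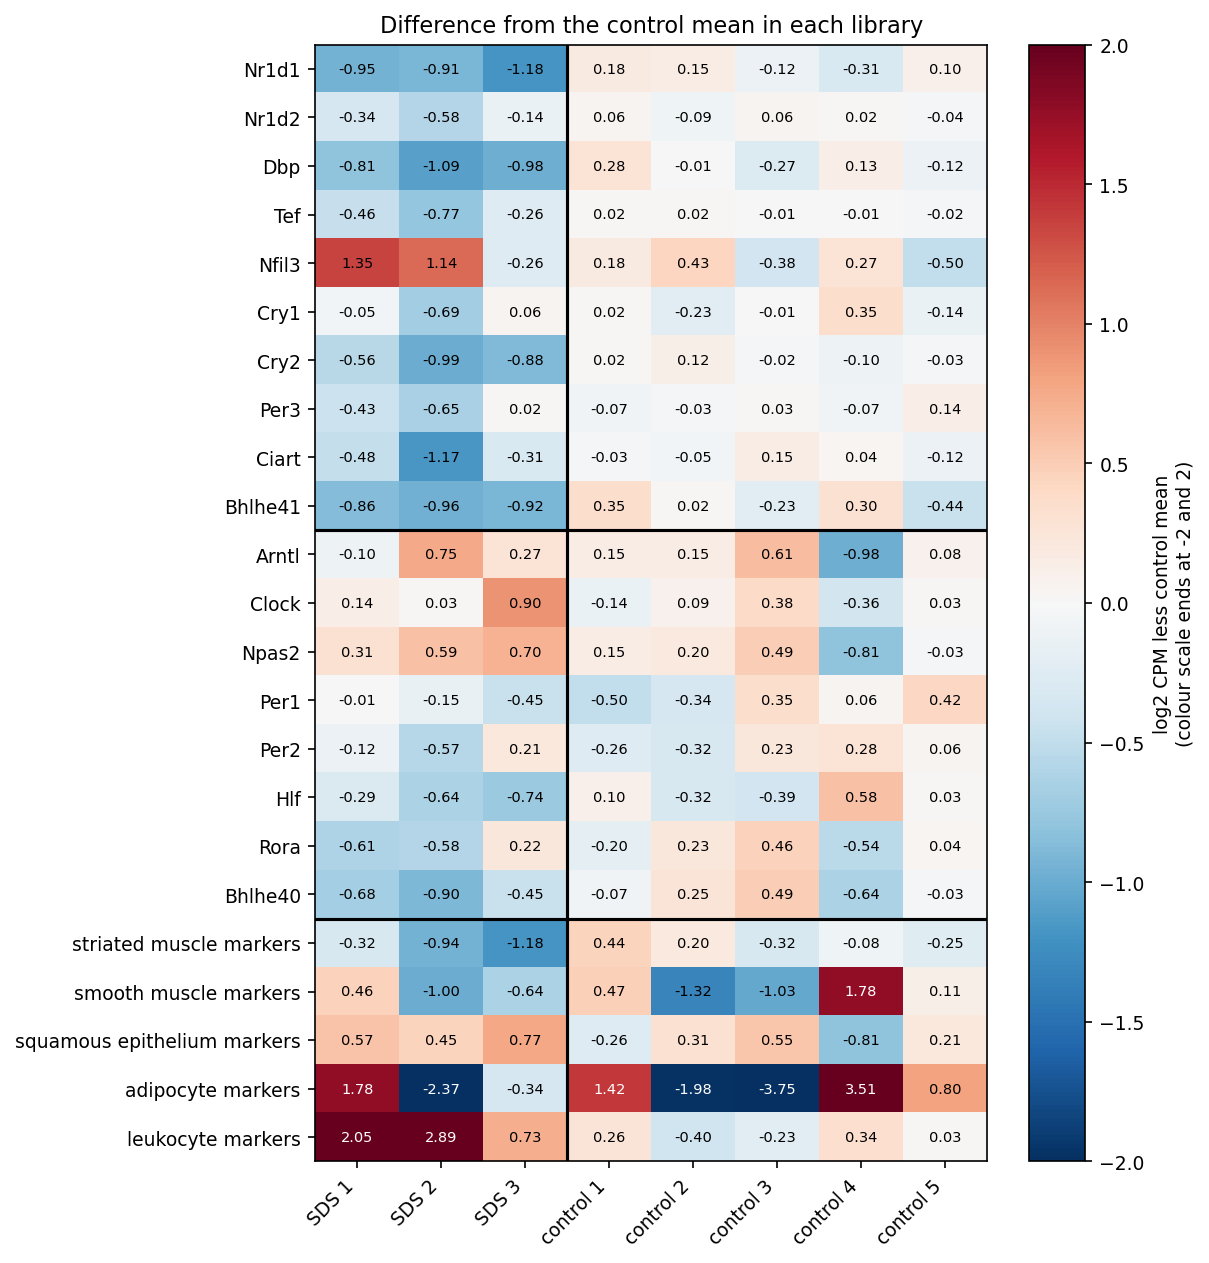
Log2 CPM less the mean of the 5 controls, by library (columns, SDS left of control), for the 10 described genes, 8 other clock genes and the mean of 5 marker lists (rows, separated by lines). Nr1d1, Nr1d2, Dbp, Tef, Cry2, Ciart and Bhlhe41 are below the control mean in all 3 SDS libraries, as are Per1, Hlf and Bhlhe40. The same holds for the striated muscle markers (-0.32, -0.94 and -1.18), for which control library 3 also stood at -0.32.

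Striated muscle forms the outer wall of the mouse esophagus, and its markers summed lower in every SDS library than in every control. The 10 striated muscle markers summed to 24218, 20028 and 13477 CPM in SDS libraries 1, 2 and 3, and to between 27877 and 38164 CPM in controls. In SDS library 3, where this sum was lowest, Nr1d2, Tef, Cry1, Per3 and Ciart had their highest SDS level. Nr1d1 and Nfil3 had their lowest there. All 10 muscle markers had a negative fold change, with a median of -0.75 on the log2 scale. None was called by edgeR or limma-voom, 7 were lower at an unadjusted p under 0.05, and no marker was at 0 in every library. DESeq2 called 5 lower, where it called 9.76% of all genes in either direction. In whole tissue, fewer cells of a type and less RNA per cell cannot be told apart.

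Reads of the described genes were then set against reads of the muscle markers in the same library. Per 1000 reads of these markers, Nr1d1 had 3.99, 4.95 and 6.12 reads in the SDS libraries, against 5.54, 5.70, 6.16, 4.72 and 7.10 in controls. Dbp had 3.64, 3.62 and 5.81 with SDS, against 4.91, 4.23, 4.60, 5.33 and 5.06 in controls. For Dbp, SDS libraries 1 and 2 thus lay below every control and SDS library 3 above every control. Cry2 had 2.21, 1.98 and 3.18 with SDS, against 2.10 to 2.80 in controls. The group ranges overlapped for 9 of the 10 genes on this scale, and Nfil3 was the exception, with 0.422, 0.440 and 0.244 with SDS and 0.0990 to 0.151 in controls. Per 1000 reads of the squamous epithelium markers, 7 of the 10 overlapped, and Nr1d1, Ciart and Bhlhe41 lay lower in every SDS library. The share of all genes that overlap was not taken on these marker scales. In CPM, 13.4% of all tested genes were without overlap, so nothing is read from these overlap counts.

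With the mean level of the muscle markers as a covariate, a fit in which muscle content and treatment largely coincide, the log2 fold change was -0.79 ± 0.22 for Nr1d1, -0.64 ± 0.19 for Dbp, -0.58 ± 0.15 for Cry2 and -0.58 ± 0.27 for Bhlhe41 (SE). Nfil3 stood at 1.79 ± 0.46 and Per3 at -0.56 ± 0.23 in that fit. All 10 kept their sign, 0 of the 10 were called, and 2 of all genes were (0.0116%). The part of muscle content in the lower levels cannot be told apart from that of treatment in these libraries. With the adipocyte markers as a covariate the estimates of Nr1d1, Dbp, Cry2 and Bhlhe41 were -1.02, -0.95, -0.80 and -0.92.

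**Figure D4:**
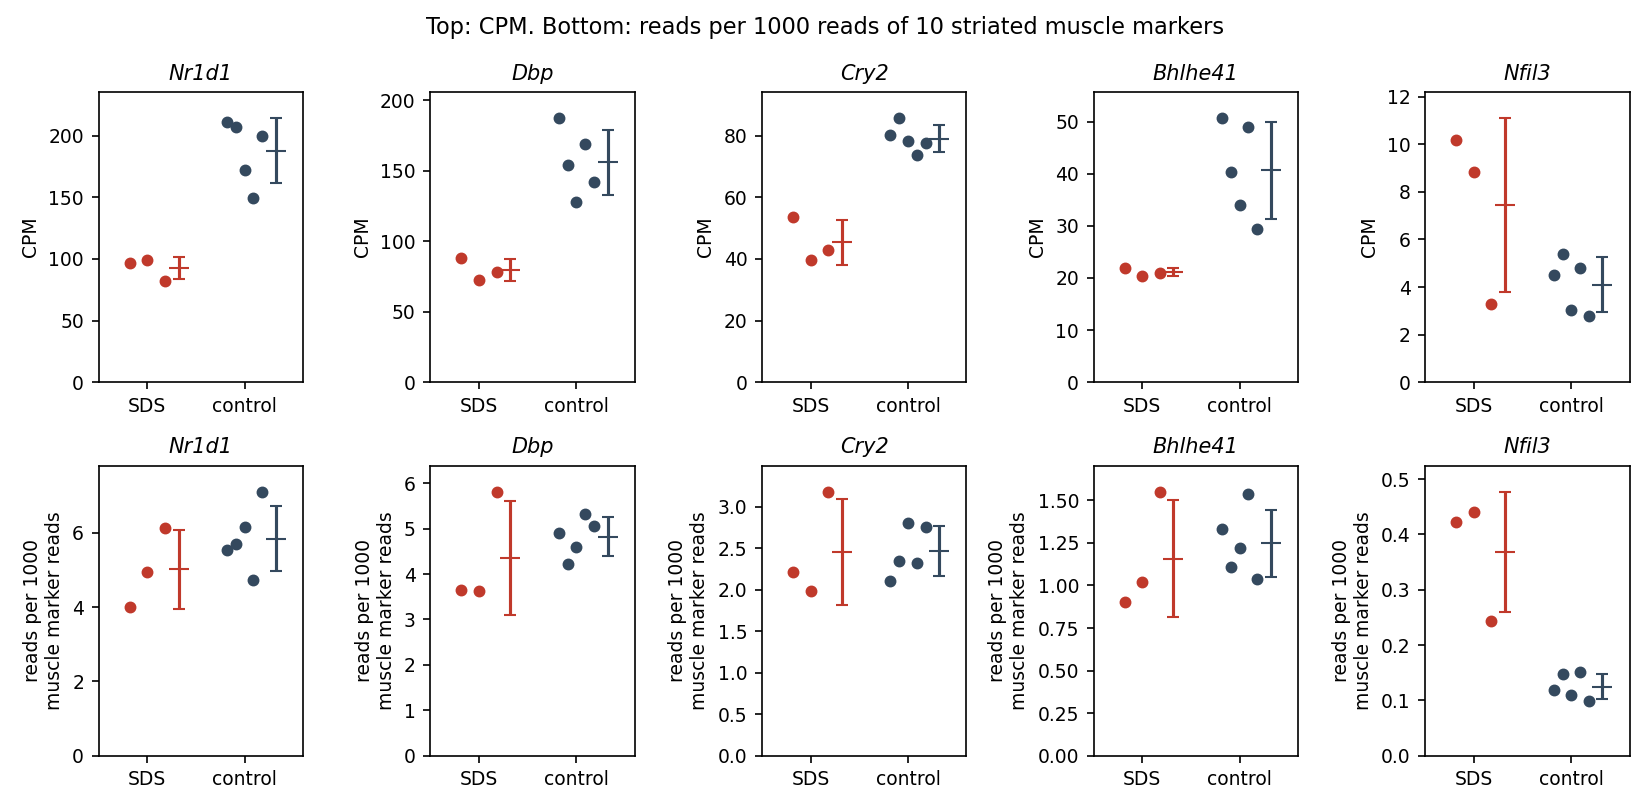
Top row: level in CPM (y axis, from 0) of 5 of the genes in SDS libraries (red, left) and control libraries (dark, right). Bottom row: reads of the same gene per 1000 reads of the 10 striated muscle markers; points are libraries, bars mean and SD. The groups are apart in the top row for Nr1d1, Dbp, Cry2 and Bhlhe41 and overlap for these 4 in the bottom row, while Nfil3 overlaps in the top row and is apart in the bottom one.

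Within the groups the other described genes did not all follow Dbp or Nr1d1. Coefficients among those other genes were not taken. In the SDS libraries Nr1d2, Tef, Cry1, Per3 and Ciart shared an order, each lowest in library 2 and highest in library 3. As a description over 8 libraries, with the mean of its group taken from each library, the Pearson coefficient with Dbp was 0.826 for Bhlhe41, 0.453 for Cry1, 0.277 for Tef and 0.126 for Nr1d1. With Nr1d1 it was 0.370 for Cry2, -0.488 for Nr1d2 and -0.695 for Cry1. Among 11186 genes with a mean of at least 5 CPM, those most like Dbp were Atp5k (0.981), Ppp2r2d (0.977), Akr7a5 (0.968), Sh3bgr (0.965) and Efcab2 (0.961), and those least like it were Brpf1 (-0.987), Vgll3 (-0.984), Nrf1 (-0.981), Elk4 (-0.978) and Mon1b (-0.970). Those most like Nr1d1 were Cecr2 (0.964), Frat2 (0.948), Pcgf1 (0.943), Rfc2 (0.942) and Gfra1 (0.937), and those least like it were Cep76 (-0.964), Rock1 (-0.960), Ube2w (-0.959), Tapt1 (-0.953) and Rsrc1 (-0.951). No clock gene was in either set, and the libraries share depth and tissue content, so these values say nothing of shared control.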

How the data were processed

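RNA of whole esophagus was measured in 3 SDS and 5 control libraries, grouped by the treatment label. Per the labels' protocols, poly(A) RNA libraries were prepared (NEBNext Ultra II); the extraction text speaks of cell pellets. The authors deposited unnormalised counts for each gene. Their processing notes name mm10 as the build, and STAR 2.6.1c, Subread, FastQC and bcl2fastq as tools. Annotation release, strand setting and handling of multiply mapped reads: not given in the sources used here.

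The tables also give an exon length per gene, from the file headers, used here for TPM. Symbols matched 48970 of 49315 identifiers. The count model was edgeR 4.0.16 under R 4.3.3: filterByExpr (minimum count 10, minimum total 15; 17179 genes kept), TMM, robust quasi-likelihood fit, Benjamini-Hochberg adjustment over all tested genes, threshold 0.05. Standard errors came from each gene's estimate and its quasi-likelihood F (estimate over root F); log2 CPM used a prior count of 2. Alternatives used DESeq2 1.42.0 and limma 3.58.1 (voom), other scalings and filters, marker covariates, a replicate block, and each library left out. The procedure was tested on simulated counts. No libraries of a group were copies (lowest chi-square per degree of freedom 39.5).

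The described genes and the lists were chosen with earlier results of these data known. All 10 genes are named, 8 further clock genes whatever they showed (1 more is not reported here, but stays in the counts), and of other lists the called genes or else the 3 with the smallest p; Fkbp5 and genes of overlapping exons were added after their values were seen. Marker lists for fibroblasts, endothelium, nerve, neighbouring organs, red blood cells and smooth muscle gave 0 called genes each by edgeR, with 0 at an unadjusted p under 0.05 and 0 by DESeq2 or limma-voom.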

Additional observations from a re-analysis of the deposited data

Results flagged for a closer look

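Among 32 gene levels and marker sums examined in the 5 control libraries, 1 held a library far from the rest by Dixon's criterion, where chance alone gives about 1 in 20. The adipocyte markers summed to 5532 CPM in control library 4, and the nearest other control stood at 1430.4 CPM. Without control library 4 the log2 fold changes were -1.08 for Nr1d1, -0.93 for Dbp, -0.81 for Cry2 and -0.86 for Bhlhe41, and 122 genes were called in all.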

How the results depend on the processing

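Over 17 alternative settings the 10 described genes kept the sign of their fold change in all 170 estimates, and 164 moved by less than the spread between libraries; the 6 that moved more all came with the striated muscle covariate. Expressed per striated muscle marker read, a scale chosen after seeing the data, the log2 ratio of means turned to 0.50 for Nr1d2, 0.37 for Tef, 0.64 for Cry1, 0.54 for Per3 and 0.24 for Ciart. On that scale it was -0.22 for Nr1d1, -0.15 for Dbp, -0.11 for Bhlhe41, 0 for Cry2 and 1.56 for Nfil3. The denominator itself is lower in SDS. Of the 17 other named genes, the signs of Arntl (-0.07), Clock (-0.07) and Cirbp (0.05) turned with the muscle covariate, and that of Per2 without SDS library 2 (leaving out single libraries gave -0.34 to 0.03). The number of all genes called was 180, and it was 1610 with DESeq2, 2 with the muscle covariate, 406 with the adipocyte covariate and 0 with the replicate number as a block; the cause was not tested. Leaving out single libraries gave 4 to 1222 genes. Of the 10 described genes 3 were called (1.05% of all genes). With DESeq2 6 were (9.76% of all genes), with no filter 4 (0.845%) and with the adipocyte covariate 4 (2.36%). With the muscle covariate (0.0116%) or the replicate block (0%) 0 were. Without SDS library 3, 9 were called (6.92% of all genes), without SDS library 1, 1 (0.319%), and without control library 4, 3 (0.718%). Without any 1 of the other libraries 0 were called, where 0.0228% to 0.105% of all genes were. Clock genes outside the 10 gave 0 calls in each setting except DESeq2, with 2. Whether the replicate numbers pair SDS with control libraries is not stated in the labels. Deviations of same-numbered SDS and control libraries correlated at 0.311, -0.006 and 0.307. Among libraries 1 to 3 of each group, those numbered 1 were closest to each other, as were those numbered 3, and those numbered 2 were not. So few libraries cannot decide the question. The 3 SDS libraries limit the precision of each estimate.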
